A study of Mus musculus with 36 samples.

Results

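The 53 genes described here encode the machinery that copies DNA and divides the chromosomes. They were followed through 12 groups of mouse monocytes, macrophages and monocyte-derived dendritic cells on single-colour Agilent arrays. A gene was taken as a member when a non-control probe carried its symbol, or the older symbol Cdc2a in the case of Cdk1, and its brightest probe gave its value. All 53 had a probe, among 27597 genes with one. All 53 also passed the filter on dim probes (above background on at least 3 of 36 arrays), which left 17607 genes for the tests. The members fall into 7 role groups: 9 genes of origin licensing and the helicase, 7 of nucleotide supply and the replication fork, 6 of the E2F factors, E cyclins and replication checkpoint, 8 of mitotic entry, 9 of the centromere, kinetochore and spindle checkpoint, 12 of chromosome structure, spindle and cytokinesis, and 2 of the anaphase-promoting complex.

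In a dividing cell, CDC6 and CDT1 load the MCM helicase at replication origins before S phase, and geminin stops them from loading it again. E2F factors, held in check by the retinoblastoma family until cyclin-dependent kinases act, drive many of the genes used at that step, while FOXM1 and the MuvB complex act later, on genes of mitosis. Monocyte precursors divide in the bone marrow, M-CSF is the principal growth factor of mouse macrophages in culture, and IFN-γ and LPS are known as inhibitors of that growth.

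The study placed monocyte-derived cells under conditions that yield different macrophage types, with 3 arrays per group. Monocytes were Ly6C+, Ly6G-, CD11b+ cells sorted from bone marrow and not cultured. The macrophages named MΦ grew for 6 days in 10% FCS with 20 ng/ml M-CSF. They were then given nothing further (M0), 25 ng/ml IFN-γ (MΦ_IFN-γ), 25 ng/ml IFN-γ with LPS at a labelled 100 µg/ml (M1), 20 ng/ml IL-4 (M2a), a coating of complexed human immunoglobulin with 25 ng/ml IFN-γ (M2b) or 1e-07 M dexamethasone (M2c). Stimulation lasted 24 h. For M0 and Mreg_no IFN-γ the labels list no stimulation and give no separate time of harvest. In comparisons with these groups, IFN-γ, IL-4 or dexamethasone thus cannot be told apart from any difference in time of harvest. Mreg cells grew in 10% FCS, 10% human AB serum and 5 ng/ml M-CSF before 24 h of 25 ng/ml IFN-γ. Mreg_no IFN-γ lacked the cytokine, Mreg_+LPS received LPS at the same labelled 100 µg/ml beside it, and Mreg_unpurified came from adherent mononuclear cells of bone marrow, spleen and blood without the sort. Mo-DC grew in 10% FCS with 20 ng/ml GM-CSF and 20 ng/ml IL-4, then received 25 ng/ml IFN-γ. Strain, sex and age are not given in the sources used here, nor whether the 3 arrays of a group are separate animals or cultures, so the tests reflect the scatter among arrays alone, which may be technical.

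Values are log2 signal relative to each array's 75th percentile, so 0 is a probe as bright as that percentile, and arrays are listed in the order of series 1, 2 and 3. That percentile lay between 338 and 696 intensity units, 50.1% to 57.6% of probes were well above background on each array, and no spot used was saturated. All 8 macrophage and monocyte defining markers were above background on every array of each cultured group, and 7 of 8 were on every monocyte array. Each slide held 4 groups of the same series. Monocytes, M0, M1 and M2a shared slides, as did M2b, M2c, MΦ_IFN-γ and Mo-DC, and the 4 Mreg groups. Comparisons across these sets cannot be told apart from a difference between slides. One spot stood apart: Mcm6 (probe at chr1:130159147-130159206, mm8) read -4.14 on the monocyte array of series 1, against 6.86 and 6.40 on the other two, and this widened its error in every comparison.

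Promoter sequences of 7 members, chosen with their values known, are shown first. RefSeq (GRCm38.p6) gave 49 promoters for 44 of the 53 members; the window searched ran from 250 bases before to 50 after the start. Letters searched on both strands were an E2F-type motif (TTTCGCGC, TTTGGCGC or TTTCCCGC), the cell cycle homology region CHR (TTTGAA) and the CCAAT box (CCAAT); none of these contains another, but matches can overlap. The opening capitals of Mcm5 belong to an overlapping pair, TTTCGCGC, which begins before the printed stretch, and GCGCCAAA. The 150 bases before the start are printed 5′ to 3′ on the gene's strand, in lower case, with capitals marking any of these letters or their reverse complement. Mcm5 and Cdc6 stand for the licensing genes, Cdk1 for a member holding all 3 kinds of letters, Ccnb2 and Top2a for mitosis, and Ccne1 and Pcna are among the members that moved against the majority in at least 1 comparison. Coordinates are chr8:75109359-75109508 (plus strand) for Mcm5, chr11:98908001-98908150 (plus) for Cdc6, chr10:69352913-69353062 (minus) for Cdk1, chr9:70421555-70421704 (minus) for Ccnb2, chr11:99024190-99024339 (minus) for Top2a, chr7:38107491-38107640 (minus) for Ccne1 and chr2:132253181-132253330 (minus) for Pcna.
Mcm5: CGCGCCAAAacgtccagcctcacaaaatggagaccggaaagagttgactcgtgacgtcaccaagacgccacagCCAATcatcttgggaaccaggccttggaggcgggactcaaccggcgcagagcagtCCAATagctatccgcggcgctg
Cdc6: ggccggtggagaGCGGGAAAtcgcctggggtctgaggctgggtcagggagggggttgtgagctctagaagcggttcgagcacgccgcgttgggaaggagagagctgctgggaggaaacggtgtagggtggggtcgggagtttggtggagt
Cdk1: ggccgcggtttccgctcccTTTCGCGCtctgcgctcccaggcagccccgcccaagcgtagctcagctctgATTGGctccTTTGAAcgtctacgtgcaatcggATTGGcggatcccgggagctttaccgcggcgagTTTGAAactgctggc
Ccnb2: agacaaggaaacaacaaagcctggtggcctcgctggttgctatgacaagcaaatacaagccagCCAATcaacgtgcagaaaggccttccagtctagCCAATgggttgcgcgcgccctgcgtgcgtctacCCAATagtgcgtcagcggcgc
Top2a: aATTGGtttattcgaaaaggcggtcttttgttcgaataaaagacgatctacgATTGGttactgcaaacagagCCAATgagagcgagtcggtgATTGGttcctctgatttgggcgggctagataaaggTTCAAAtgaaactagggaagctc
Ccne1: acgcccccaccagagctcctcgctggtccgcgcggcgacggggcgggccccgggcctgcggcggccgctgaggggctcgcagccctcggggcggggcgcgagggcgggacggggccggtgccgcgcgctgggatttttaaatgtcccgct
Pcna: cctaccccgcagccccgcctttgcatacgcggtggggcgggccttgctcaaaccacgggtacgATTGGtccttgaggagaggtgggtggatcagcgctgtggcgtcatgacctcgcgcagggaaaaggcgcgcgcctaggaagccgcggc

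E2F-type letters were in 9 of the 49 member promoters (18.4%, Wilson 95% interval 9.98% to 31.4%), against 1.84% of all 32851 promoters of the same length. The 9 belonged to E2f7, Cdk1, Lig1, Cdc6, Cdt1, Mcm3, Mcm5, Mcm6 and Mcm7. CHR letters were in 22 (44.9%), against 17.9% of all promoters, and CCAAT letters in 31 (63.3%), against 37.4%. The 23 promoters of the first 3 role groups held E2F-type letters in 8 and CHR letters in 3 (E2f8, Fen1 and Mcm2), whereas the 26 promoters of the mitosis groups held them in 1 and 19. The E2F-type and CHR counts depended on the window. Over only the 250 bases before the start, CHR letters were in 12 of 49 member promoters (24.5%, interval 14.6% to 38.1%), against 16.0% of all promoters, and in 9 of the 26 of the mitosis groups. E2F-type letters were there in 6 of 49 (12.2%, interval 5.73% to 24.2%), against 1.53% of all promoters, and in 5 of the 23 of the first 3 role groups. A match describes the letters only, and the choice of members did not use them.

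Across the 12 groups the members were brightest in uncultured monocytes and dimmest in M1. The median member differed from its monocyte mean by -2.06 in Mreg_unpurified, -2.10 in MΦ_IFN-γ, -2.21 in M0, -2.31 in M2b, -2.41 in Mreg and -2.63 in Mo-DC. The array ranges of these 6 groups form a chain in which neighbours cannot be ordered: Mreg_unpurified alone ran from -2.79 to -1.63. M2c followed at -3.36, with arrays from -3.54 to -3.15. M2a (-3.96), Mreg_+LPS (-3.98) and Mreg_no IFN-γ (-4.19) came next and overlapped, with Mreg_no IFN-γ between -4.65 and -3.96. M1 stood below all of them at -5.73, its 3 arrays lying within -5.81 and -5.65.

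**Figure D1:**
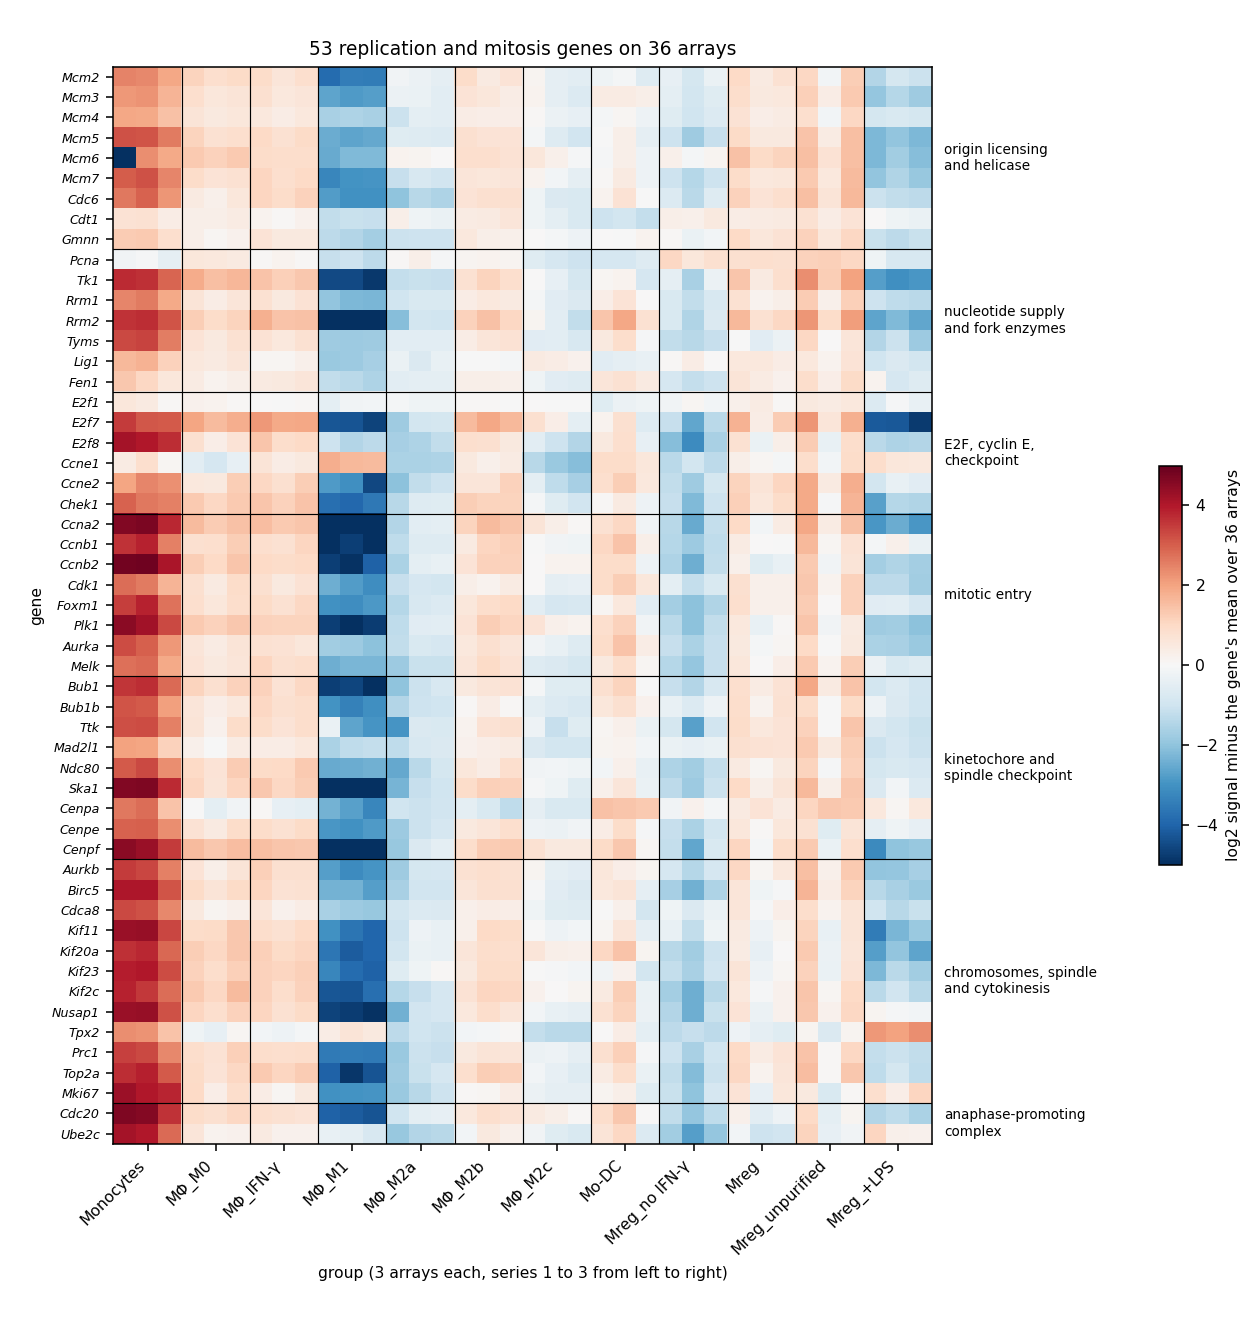
Log2 signal of each of the 53 genes (vertical axis, grouped by role) on each of 36 arrays (horizontal axis, 3 per group), as the difference from the gene's mean; colours stop at -5 and 5. Monocyte arrays are high for nearly every gene, M1 arrays are low, and the Mcm6 cell of the first monocyte array is the exception among the monocytes.

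**Figure D2:**
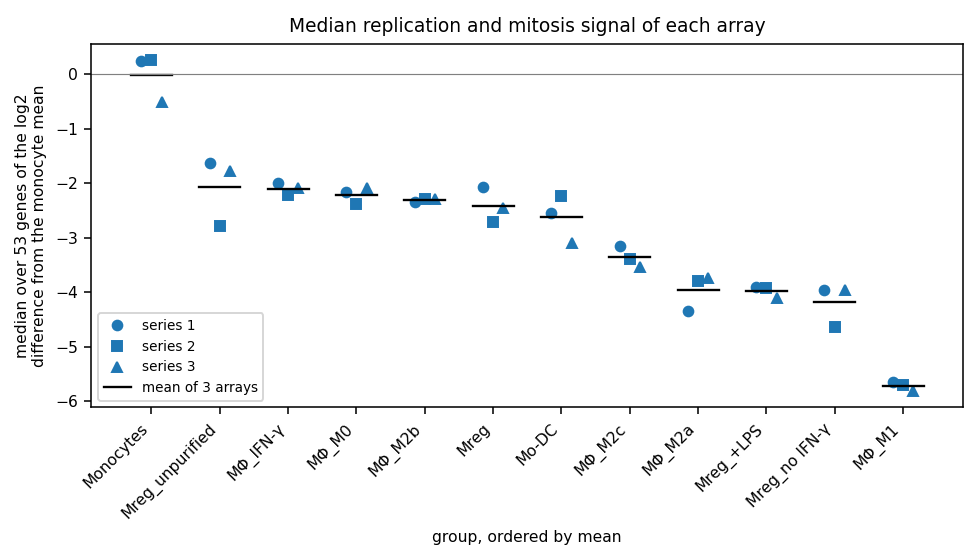
Median over the 53 genes of the log2 difference from the monocyte mean (vertical axis) for each array (points, with the shape giving the series) and group (horizontal axis; lines are means of 3 arrays). Groups run from monocytes at -0.01 to M1 at -5.73, with Mreg_no IFN-γ at -4.19 and Mreg at -2.41.

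Detection differed between groups as well. All 53 members were above background on all arrays of monocytes, M0, MΦ_IFN-γ, M2b, Mo-DC, Mreg and Mreg_unpurified. That number was 52 in M2a and in M2c, 49 in Mreg_+LPS and in Mreg_no IFN-γ, and 40 in M1. On no M1 array did Bub1, Ccnb1, Ccne2, Cenpf, Chek1, E2f7, Kif11, Kif2c, Nusap1, Rrm2, Ska1 or Ttk rise above background. In these bulk samples, fewer dividing cells and less of each RNA per cell cannot be told apart.

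Both cultures without stimulus had far less signal from these genes than uncultured monocytes. In M0, 49 of 53 members were lower (limma, adjusted p under 0.05 over all genes; 33.3% of all genes were called lower) and 1 was higher (30.1% of all genes), with a median difference of -2.19 against -0.08 over all genes. In Mreg_no IFN-γ, 50 were lower (33.1% of all genes) and 1 was higher (34.2%), with a median of -4.22 against 0.01. These comparisons share the monocyte arrays. Mki67, the proliferation antigen that coats mitotic chromosomes, read 6.37, 6.10 and 5.90 in monocytes, 3.08, 2.43 and 2.96 in M0, and 0.97, 0.10 and 1.25 in Mreg_no IFN-γ. The 3 groups did not overlap, and the falls were -3.30 ± 0.32 (SE, adjusted p = 7.8e-10) in M0 and -5.35 in Mreg_no IFN-γ.

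Among licensing genes, Mcm5, a helicase subunit, stood at 5.45, 5.40 and 4.87 in monocytes, 3.35, 3.00 and 3.11 in M0 and 1.21, 0.47 and 1.11 in Mreg_no IFN-γ. Its fall was 4.25-fold in M0 and 19.9-fold in Mreg_no IFN-γ (log2 difference -4.31 ± 0.24, adjusted p = 1e-14), again without overlap. Cdc6, by its brightest probe the licensing factor with the largest fall in M0, fell by 2.19 on the log2 scale (SE 0.24, adjusted p = 7.5e-09). Its dimmer second probe, above background on 30 arrays, gave -0.71. Gmnn, which encodes geminin, had the smallest called fall at -0.94. For nucleotide supply, Tyms, the thymidylate synthase, read 4.67, 4.76 and 3.92 in monocytes and 2.05, 1.84 and 2.11 in M0 (-2.45 ± 0.23, adjusted p = 5.3e-10). Rrm2, the regulated subunit of ribonucleotide reductase, differed by -2.39 in M0 and by -4.48 in Mreg_no IFN-γ. E2f8, a repressor that E2F itself induces, differed by -3.35 in M0.

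Mitotic genes fell as well. Ccnb2, a B-type cyclin of the mitotic kinase, read 5.75, 5.78 and 4.99 in monocytes, 2.14, 1.93 and 2.32 in M0, and -0.62, -1.51 and -0.30 in Mreg_no IFN-γ. It was 10.4-fold lower in M0 (-3.37 ± 0.37, adjusted p = 8.5e-09) and 79.5-fold lower in Mreg_no IFN-γ (-6.31 ± 0.37, adjusted p = 2.3e-14), each array of either culture lying below each monocyte array. Ska1, part of the complex that holds kinetochores to microtubules, fell by 3.42 on the log2 scale in M0 (SE 0.35, adjusted p = 2.3e-09). Ube2c, the ubiquitin-conjugating enzyme of the anaphase-promoting complex, differed by -3.32 in M0 and -5.79 in Mreg_no IFN-γ. Cdk1, the mitotic kinase, differed by -1.63 in M0. Top2a, the topoisomerase that untangles sister chromatids, differed by -2.66 in M0 and -5.03 in Mreg_no IFN-γ. Birc5, which encodes the passenger-complex subunit survivin, differed by -2.89 and -5.61.

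Pcna, the sliding clamp of DNA polymerases, went against them. It read 6.44, 6.53 and 6.16 in monocytes, 7.19, 7.14 and 7.06 in M0, and 7.66, 7.17 and 7.41 in Mreg_no IFN-γ. Both cultures lay above the monocytes on every array, by 0.75 ± 0.14 (adjusted p = 3.8e-05) and 1.03 ± 0.14 (adjusted p = 2.6e-07). It has a single probe (mm8 chr2:131941125-131941262). Not called in either were Cdt1 (-0.30 in M0, -0.28 in Mreg_no IFN-γ) and Mcm6. Mcm6 differed by 2.74 ± 1.42 in M0 and by 1.58 in Mreg_no IFN-γ, values that turned to -0.85 (adjusted p = 0.0013) and -2.01 (adjusted p = 7.7e-09) without the monocyte array of series 1. E2f1, an activating E2F, differed by -0.21 (adjusted p = 0.19) in M0 and by -0.41 (adjusted p = 0.01) in Mreg_no IFN-γ, where its dimmer second probe, above background on all 36 arrays, gave 0.04.

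Every measured gene of the granulocyte, T and NK cell, B cell, erythroid and progenitor marker lists was above background on every monocyte array. The monocytes had been sorted as Ly6C+, Ly6G- and CD11b+. Of 9 granulocyte precursor and neutrophil markers measured, 9 were above background on every monocyte array, with a summed log2 level of 11.61 to 11.94, against at most 4.48 on any array of a cultured group. The 7 T and NK cell markers summed to 4.69 to 5.59 there, against at most 0.24 elsewhere. The 4 B cell markers summed to 1.86 to 1.88, the 8 erythroid markers to 5.91 to 6.77 (4.69 to 8.72 in cultured groups) and the 6 stem and progenitor markers to 4.36 to 4.40 (2.49 to 4.34 in cultured groups). Which cells these signals came from was not tested, and their part in the difference from cultured cells was not tested.

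IFN-γ raised 46 of the 53 members in the Mreg culture and lowered none (9.5% of all genes were called higher), with a median difference of 1.59 against -0.06 over all genes. Members of each role rose: 7 of 9 in licensing, 5 of 7 at the fork, 5 of 6 among the E2F and cyclin E genes, 8 of 8 in mitotic entry, 8 of 9 at the centromere, 11 of 12 in chromosome structure and spindle, and 2 of 2 in the anaphase-promoting complex. Both groups shared slides, and every called member differed the same way in all 3 series. Medians by series were 1.81, 1.67 and 1.23. The time of harvest of Mreg_no IFN-γ is not given, so any difference in it cannot be told apart from IFN-γ.

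Mcm5 read 1.21, 0.47 and 1.11 in Mreg_no IFN-γ and 3.22, 2.74 and 2.73 in Mreg, a 3.92-fold rise without overlap (1.97 ± 0.24, adjusted p = 9e-07) and the largest among licensing genes. The smallest was that of Gmnn (0.90 ± 0.15, adjusted p = 6.1e-05). Rrm2 read -1.13, -1.89 and -1.08 without IFN-γ and 1.26, 0.40 and 0.66 with it (2.14 ± 0.38, adjusted p = 0.00015). Again every Mreg array was the higher. Tyms had the smallest called rise at the fork (0.95 ± 0.23, adjusted p = 0.0037). Ccne2, which encodes an E-type cyclin of S phase entry, rose by 2.23 ± 0.40 (adjusted p = 0.00014), and Ccne1, the other E-type cyclin, by 1.27 ± 0.22 (adjusted p = 0.00011). The repressors E2f7 (2.82) and E2f8 (2.53), the checkpoint kinase Chek1 (2.36) and the spindle checkpoint kinase Ttk (2.23) also rose, each being above background on 2 of 3 Mreg_no IFN-γ arrays.

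Foxm1, the transcription factor of mitotic genes, read -3.06, -3.43 and -2.88 without IFN-γ and -0.55, -1.12 and -1.14 with it. That 4.55-fold rise (2.19 ± 0.29, adjusted p = 3.2e-06) was the largest in mitotic entry and Cdk1 had the smallest (1.25 ± 0.28, adjusted p = 0.0015). Plk1, the kinase of mitotic entry and spindle assembly, rose by 1.62 ± 0.35 (adjusted p = 0.0011) and Ccnb1, the principal mitotic cyclin, by 1.64 ± 0.35 (adjusted p = 0.0011). Cenpf, a kinetochore protein, rose by 2.14 ± 0.45 (adjusted p = 0.00096), Bub1, a spindle checkpoint kinase, by 1.81 ± 0.32 (adjusted p = 0.00014), and its relative Bub1b by 1.03 ± 0.27 (adjusted p = 0.0062).

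Top2a read -1.19, -2.12 and -1.02 without IFN-γ and 1.08, 0.22 and 0.66 with it, a 4.27-fold rise (2.10 ± 0.35, adjusted p = 6.5e-05). Mki67 rose from 0.97, 0.10 and 1.25 to 2.79, 1.68 and 2.68 (1.61 ± 0.32, adjusted p = 0.00049). Birc5 rose from 0.79, 0.07 and 0.90 to 3.06, 2.25 and 2.40 (1.98 ± 0.32, adjusted p = 3.9e-05). None of these 3 genes overlapped between the groups. Cdca8, another passenger-complex subunit, had the smallest called rise in its role (0.72 ± 0.24, adjusted p = 0.036). Ube2c rose by 1.41 ± 0.40 (adjusted p = 0.012) and Cdc20, an activator of the anaphase-promoting complex, by 1.30 ± 0.32 (adjusted p = 0.0039). The 7 members not called were Cdt1 (0.05), Pcna (0.01), Lig1 (0.32), E2f1 (0.29, adjusted p = 0.14), Cenpa (0.53), Kif11 (0.72) and Mcm6 (1.06 ± 1.42).

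The same 25 ng/ml of IFN-γ on M-CSF macrophages moved 2 members, 1 up and 1 down, where 22.2% of all genes were called in either direction. The median member differed by 0.02 (-0.02 over all genes), and 5 members had an unadjusted p under 0.05. Ccne1 read 2.62, 2.30 and 2.72 in M0 and 3.78, 3.49 and 3.61 in MΦ_IFN-γ, without overlap, and rose by 1.09 ± 0.22 (adjusted p = 0.00049). Pcna read 7.19, 7.14 and 7.06 in M0 and 6.67, 6.78 and 6.67 in MΦ_IFN-γ, a fall of -0.42 ± 0.14 (adjusted p = 0.031). That call was lost with normexp background correction (-0.20, adjusted p = 0.36) and without the filter on dim probes (adjusted p = 0.057). The count of 2 became 1 without series 1 or 3 of MΦ_IFN-γ or series 1 or 2 of M0.

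The other members did not pass the test. Mcm5 read 3.35, 3.00 and 3.11 in M0 and 3.26, 3.02 and 3.22 in MΦ_IFN-γ (0.02, adjusted p = 0.98). Top2a read 0.99, 0.73 and 1.07 in M0 and 1.34, 1.13 and 1.29 in MΦ_IFN-γ (0.32, adjusted p = 0.61), and Birc5 differed by 0.00 with groups that overlapped. Mki67 differed by -0.40 (adjusted p = 0.46), Rrm2 by 0.46 (adjusted p = 0.47), Cdk1 by -0.07, Plk1 by -0.16 and Bub1 by -0.05. These 2 groups lay on different slide sets.

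**Figure D3:**
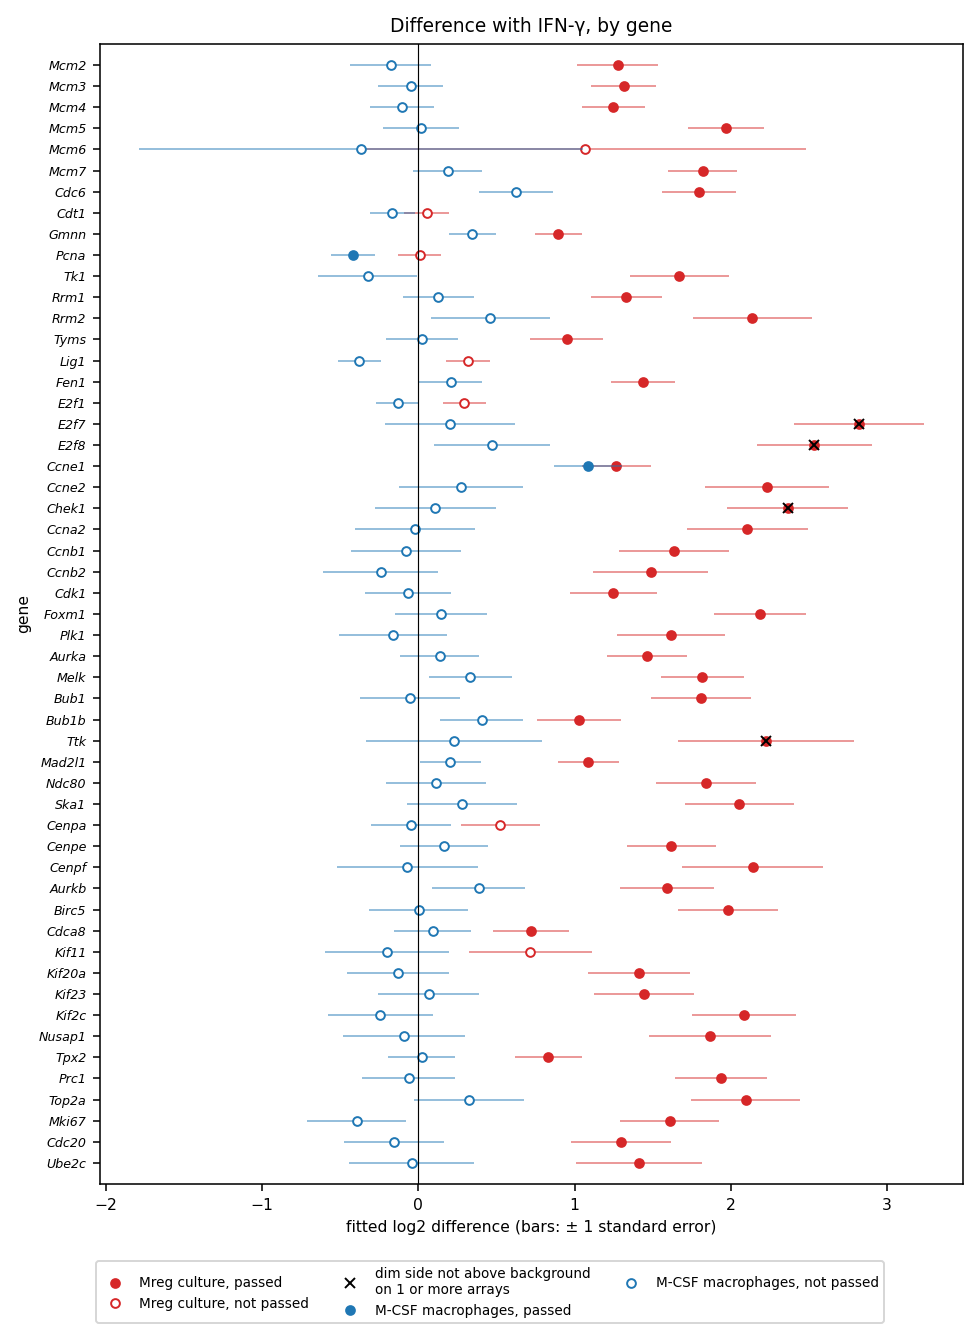
Fitted log2 difference with IFN-γ (horizontal axis, bars of 1 standard error) for each of 53 genes (vertical axis) in the Mreg culture (red) and in M-CSF macrophages (blue); filled points passed the test and crosses mark a dim side not above background on 1 or more arrays. Red points lie to the right with a median of 1.59 while blue points gather about 0 with a median of 0.02, and Ccne1 is to the right in both.

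Tested as a difference of the responses to IFN-γ, 19 of 53 members differed, all with the larger value in the Mreg culture (1.23% of all genes were called higher), and the median was 1.46 against -0.05 over all genes. By role they were 5 of 9 licensing genes, 2 of 7 fork genes, 3 of 6 E2F and cyclin E genes, 3 of 8 genes of mitotic entry, 2 of 9 at the centromere, 4 of 12 of chromosomes and spindle, and 0 of 2 of the anaphase-promoting complex. The responses differed for Mcm5 by 1.96 ± 0.34 (adjusted p = 0.0031), for Mcm7 by 1.63 ± 0.31 (adjusted p = 0.0063) and for Mcm4 by 1.35 ± 0.29 (adjusted p = 0.013), all helicase subunits. They differed by 2.00 ± 0.45 (adjusted p = 0.02) for Tk1, the thymidine kinase of S phase, and by 1.23 ± 0.29 (adjusted p = 0.026) for Fen1, the flap nuclease. For E2f7 the value was 2.62 ± 0.59 (adjusted p = 0.02).

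Among mitotic genes it was 2.04 ± 0.41 for Foxm1 (adjusted p = 0.0096), 2.13 ± 0.54 for Ccna2, which encodes the cyclin of S phase and early mitosis (adjusted p = 0.041), and 1.86 ± 0.45 for Bub1 (adjusted p = 0.032). Kif2c, a microtubule depolymerase, gave 2.33 ± 0.47 (adjusted p = 0.0096), Prc1, which bundles the central spindle, 2.00 ± 0.42 (adjusted p = 0.012), Mki67 2.00 ± 0.45 (adjusted p = 0.02) and Birc5 1.98 ± 0.45 (adjusted p = 0.021). No difference was called for Ccne1 (0.18 ± 0.31, adjusted p = 0.94), Pcna (0.42), Rrm2 (1.68, adjusted p = 0.13), Cdk1 (1.31, adjusted p = 0.091), Plk1 (1.78, adjusted p = 0.06) or Top2a (1.77, adjusted p = 0.067). The count of 19 fell to 1 with normexp background correction. It fell to 7 without M0 of series 1 or 3, MΦ_IFN-γ of series 2 or Mreg of series 1, to 8 without Mreg_no IFN-γ of series 2, and to 11 without MΦ_IFN-γ of series 1 or 3 or Mreg of series 3.

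Set side by side, the 2 cultures differed in 47 members without IFN-γ and in 8 with it. Without stimulus, 47 of 53 members were lower in Mreg_no IFN-γ than in M0 and none was higher (13.4% of all genes were called lower), with a median of -2.05 against 0.07 over all genes. Kif2c read -4.57, -5.32 and -4.27 in Mreg_no IFN-γ and -1.55, -1.85 and -1.28 in M0, the largest gap in its role (-3.16 ± 0.33, adjusted p = 6.1e-08). Ccna2 read -0.98, -2.14 and -0.80 against 1.97, 1.67 and 1.85 (-3.14 ± 0.39, adjusted p = 5.8e-07). Neither gene overlapped between the cultures. Mcm5 was lower by -2.23 ± 0.24 (adjusted p = 1e-07), Tk1 by -2.45 ± 0.32 (adjusted p = 1.3e-06), Cenpf by -3.00 ± 0.45 (adjusted p = 1e-05), Birc5 by -2.72 ± 0.32 (adjusted p = 2.9e-07) and Plk1 by -2.83 ± 0.35 (adjusted p = 5.5e-07). At the small end were Ccne1 (-0.59 ± 0.22, adjusted p = 0.044), Mad2l1, a spindle checkpoint protein (-0.58, adjusted p = 0.025), and Lig1, the replicative ligase (-0.38, adjusted p = 0.04). Pcna (0.29), Cdt1 (0.02), Gmnn (-0.34), E2f1 (-0.20), Cenpa (0.21) and Mcm6 (-1.15) were not called.

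With IFN-γ in both cultures, 2 members were higher and 6 lower in Mreg than in MΦ_IFN-γ, where 27.7% of all genes were called in either direction, and the median was -0.40 against 0.02. Pcna read 7.43, 7.44 and 7.39 in Mreg and 6.67, 6.78 and 6.67 in MΦ_IFN-γ (0.71 ± 0.14, adjusted p = 0.00032). Cenpa, the centromeric histone, read 0.71, 0.92 and 0.65 against 0.33, -0.18 and -0.22 (0.79 ± 0.25, adjusted p = 0.022). Lower in Mreg were Tyms (-0.96 ± 0.23, adjusted p = 0.0024), Ccnb2 (-1.21 ± 0.37, adjusted p = 0.014), Plk1 (-1.05 ± 0.35, adjusted p = 0.024), Cdc20 (-0.94 ± 0.32, adjusted p = 0.029) and the spindle motors Kif20a (-1.06 ± 0.33, adjusted p = 0.016) and Kif23 (-0.96 ± 0.32, adjusted p = 0.026). Mcm5 (-0.27), Top2a (-0.60) and Mki67 (-0.05) were not called. The count of 8 fell to 4 without any single MΦ_IFN-γ array, to 2 without Mreg of series 2 and to 5 without Mreg of series 3. The cultures differ in M-CSF dose and serum together, and lay on different slides, so these cannot be told apart.

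LPS lowered nearly all members in both cultures. In Mreg_+LPS against Mreg, 45 of 53 fell (25.6% of all genes were called lower) and 3 rose (31.6% were called higher), with a median of -1.62 against 0.16 over all genes. In M1 against MΦ_IFN-γ, 48 fell (23.9% of all genes) and 2 rose (27.1%), with a median of -3.79 against 0.11. By series the medians were -1.90, -1.24 and -1.74 in Mreg and -3.81, -3.77 and -3.83 in M1. The LPS comparisons share the Mreg and MΦ_IFN-γ arrays with those of IFN-γ and of the cultures. M1 and MΦ_IFN-γ lay on different slide sets, whereas the Mreg pair shared slides.

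At the helicase, Mcm5 read 3.22, 2.74 and 2.73 in Mreg and -0.01, 0.30 and 0.02 in Mreg_+LPS, a 6.96-fold fall without overlap (-2.80 ± 0.24, adjusted p = 1.9e-10). In M1 it read -0.23, -0.39 and -0.32 against 3.26, 3.02 and 3.22 in MΦ_IFN-γ, an 11.2-fold fall (-3.48 ± 0.24, adjusted p = 4.7e-12). Mcm2, another subunit, had the largest licensing fall in M1 (-4.39 ± 0.26, adjusted p = 2e-13), and Cdt1 the smallest in both (-0.58 ± 0.14 in Mreg_+LPS, adjusted p = 0.0012, and -1.32 in M1).

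Tk1 read 1.56, 0.62 and 1.01 in Mreg and -2.57, -2.89 and -2.72 in Mreg_+LPS (13.8-fold lower, -3.79 ± 0.32, adjusted p = 9.9e-11). It read 1.62, 1.38 and 1.55 in MΦ_IFN-γ and -4.35, -4.35 and -4.66 in M1 (62.5-fold lower, -5.97 ± 0.32, adjusted p = 3.3e-14). Both falls separated the groups completely. Rrm2 fell by 3.61 on the log2 scale in Mreg_+LPS (SE 0.38, adjusted p = 7.1e-09). In M1 it was above background on no array, so its fall is given as a bound: at least 78.4-fold lower (adjusted p = 8.4e-15), with the bound set by each array's lowest signal well above background. Pcna fell in both, by -1.40 ± 0.14 (adjusted p = 2.5e-09) and -1.27 ± 0.14 (adjusted p = 2.2e-08).

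E2f7 was above background on no array of Mreg_+LPS or M1 and was at least 10.1-fold lower and at least 18.5-fold lower. E2f8 fell by 1.69 and 2.34 on the log2 scale, and in Mreg_+LPS its dimmer second probe differed in the other direction, as did those of E2f7 and Kif11. E2f1 differed by -0.60 ± 0.14 in Mreg_+LPS (adjusted p = 0.00053) and by -0.29 ± 0.14 in M1 (adjusted p = 0.079). Ccne2 was at least 12.1-fold lower in M1 and Chek1 at least 8.96-fold lower.

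In mitotic entry, Plk1 read 1.88, 1.82 and 1.82 in MΦ_IFN-γ and -3.97, -4.27 and -4.03 in M1 (61.0-fold lower, -5.93 ± 0.35, adjusted p = 1.7e-13). In Mreg_+LPS it read -1.06, -1.02 and -1.31 against 1.23, 0.36 and 0.78 (3.79-fold lower, -1.92 ± 0.35, adjusted p = 2.9e-05). Each treated array lay below each untreated one. Ccna2 fell by 3.18 on the log2 scale in Mreg_+LPS (SE 0.39, adjusted p = 7.3e-08), and in M1 it was above background on 1 of 3 arrays. Cdk1 fell by -1.89 ± 0.28 (adjusted p = 1.5e-06) and -3.45 ± 0.28 (adjusted p = 6.2e-11). Ccnb1 was at least 23.8-fold lower in M1. In Mreg_+LPS its brightest probe differed by -0.19 (adjusted p = 0.66) while its other 2 probes gave -1.85 and -1.19, and the mean of the 3 gave -1.08 (adjusted p = 0.0094).

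At the kinetochore, Cenpf had the largest fall in Mreg_+LPS (-2.99 ± 0.45, adjusted p = 2.6e-06) and was at least 41.7-fold lower in M1. Bub1 fell 2.83-fold in Mreg_+LPS (adjusted p = 0.00025) and was at least 22.5-fold lower in M1. Ska1 was at least 32.3-fold lower in M1 and Ttk at least 2.37-fold lower. Top2a read 1.08, 0.22 and 0.66 in Mreg and -1.22, -0.84 and -1.22 in Mreg_+LPS (-1.75 ± 0.35, adjusted p = 0.00012). In M1 it read -4.02, -4.82 and -4.28 against 1.34, 1.13 and 1.29, a 49.4-fold fall (-5.63 ± 0.35, adjusted p = 5.5e-13). Birc5 fell by -1.73 ± 0.32 (adjusted p = 3.9e-05) and -3.34 ± 0.32 (adjusted p = 1.6e-09). Nusap1, a spindle protein, was at least 43.5-fold lower in M1 but differed by -0.22 (adjusted p = 0.65) in Mreg_+LPS. Kif11, the spindle-pole motor, was at least 3.01-fold lower in Mreg_+LPS and at least 5.09-fold lower in M1.

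Some members rose with LPS. Tpx2, which targets Aurora A to the spindle (single probe, mm8 chr2:152585181-152585240), read 0.26, 0.05 and -0.07 in Mreg and 2.69, 2.53 and 2.83 in Mreg_+LPS, a 6.08-fold rise (2.61 ± 0.22, adjusted p = 7.7e-11). In M1 it read 0.89, 1.16 and 1.02 against 0.39, 0.28 and 0.43 (0.66 ± 0.22, adjusted p = 0.012). Neither pair overlapped, and the level in Mreg_+LPS overlapped that of uncultured monocytes (2.83, 2.77 and 1.94). Ube2c read -0.09, -0.98 and -0.91 in Mreg and 1.12, 0.33 and 0.28 in Mreg_+LPS (1.24 ± 0.40, adjusted p = 0.01), a call lost without the series 1 array of Mreg_+LPS (0.97, adjusted p = 0.07), and differed by -0.84 ± 0.40 (adjusted p = 0.086) in M1. Ccne1 read 4.95, 4.74 and 4.73 in M1, above the 3.78, 3.49 and 3.61 of MΦ_IFN-γ (1.18 ± 0.22, adjusted p = 6.4e-05), and its second probe gave a rise of 1.28. In Mreg_+LPS Ccne1 differed by 0.57 ± 0.22 (adjusted p = 0.03), which quantile scaling took to 0.18 (adjusted p = 0.53) and normexp to 0.47 (adjusted p = 0.082).

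Mki67 fell in M1 and did not pass the test in Mreg_+LPS. It read 2.79, 1.68 and 2.68 in Mreg and 2.94, 2.42 and 3.17 in Mreg_+LPS, groups that overlapped (0.46 ± 0.32, adjusted p = 0.23; 0.48 by its second probe). In M1 it read -0.94, -0.89 and -0.85 against 2.48, 2.20 and 2.59 in MΦ_IFN-γ, a 9.99-fold fall (-3.32 ± 0.32, adjusted p = 1.9e-09). Also not called in Mreg_+LPS were Cenpa (-0.13), Mcm6 (-3.19 ± 1.42, adjusted p = 0.057) and, as given above, Ccnb1 and Nusap1. When the fit held the compared groups alone, and so no monocyte array, Mcm6 kept its value of -3.19 at an adjusted p of 0.00032 in Mreg_+LPS and 2.1e-05 in M1.

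**Figure D4:**
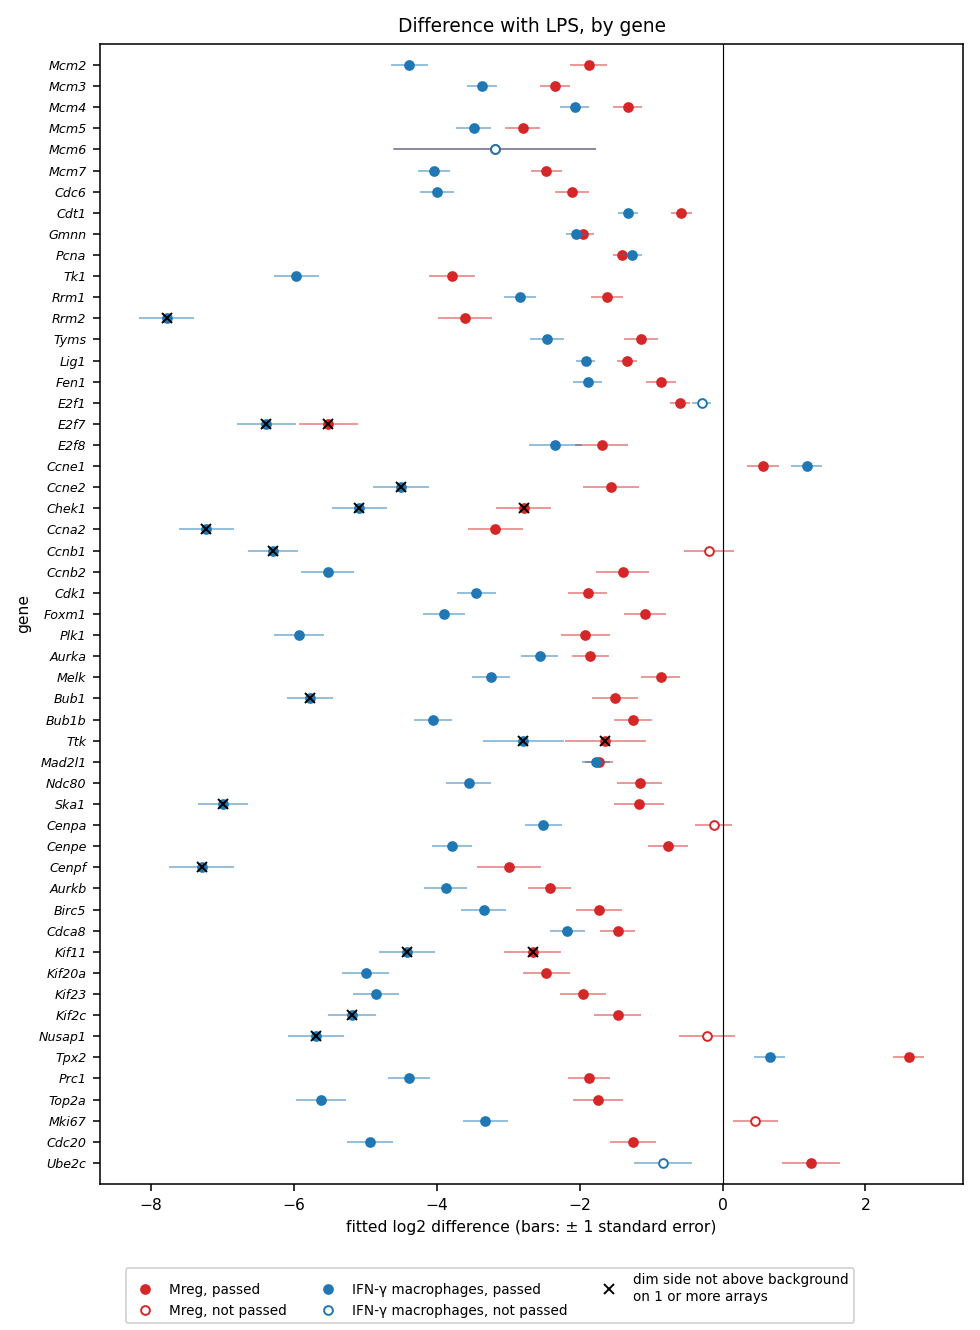
Fitted log2 difference with LPS (horizontal axis, bars of 1 standard error) for each of 53 genes (vertical axis) in Mreg (red) and in IFN-γ macrophages (blue); filled points passed the test, and crosses mark genes not above background on 1 or more arrays of the dim side, whose fitted value is no measured fold. Most points lie to the left, blue further than red (medians -3.79 and -1.62), while Tpx2 and Ccne1 lie to the right in both.

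As a test of the difference between the LPS responses, 41 of 53 members fell less, or rose more, in the Mreg culture and none the other way (18.8% of all genes were called higher), with a median of 2.07 against 0.05 over all genes. They included 11 of 12 genes of chromosomes and spindle, 7 of 8 of mitotic entry, 7 of 9 of the centromere, 6 of 7 at the fork, 6 of 9 in licensing, 2 of 6 of the E2F and cyclin E genes and 2 of 2 of the anaphase-promoting complex. Among genes measured on both sides the difference was 4.13 ± 0.52 for Ccnb2 (adjusted p = 8.8e-07), 3.88 ± 0.49 for Top2a (adjusted p = 9.8e-07), 3.78 ± 0.45 for Mki67 (adjusted p = 3.8e-07) and 3.68 ± 0.45 for Cdc20 (adjusted p = 5.5e-07). It was 3.03 ± 0.40 (adjusted p = 1.7e-06) for Cenpe, the kinetochore motor. Replication genes gave 2.52 ± 0.37 for Mcm2 (adjusted p = 5.9e-06), 2.18 ± 0.45 for Tk1 (adjusted p = 0.00038), 0.74 for Mcm4 (adjusted p = 0.045) and 0.58 for Lig1 (adjusted p = 0.023). Tpx2 gave 1.95 ± 0.30 (adjusted p = 1.5e-05). Not called were Mcm5 (0.68, adjusted p = 0.13), Pcna (-0.13), Gmnn (0.10), Mad2l1 (0.04) and Ccne1 (-0.61, adjusted p = 0.14).

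IL-4 lowered 49 of 53 members of M-CSF macrophages and raised none (5.94% of all genes were called lower), with a median of -1.75 against 0.05 over all genes, and M2a and M0 shared slides. Every called member was lower in all 3 series, whose medians were -2.14, -1.39 and -1.69. Ndc80, a kinetochore subunit that grips microtubules, read -0.91, -1.25 and -0.65 in M0 and -4.49, -3.29 and -2.80 in M2a, the largest fall at the centromere (-2.59 ± 0.32, adjusted p = 2.8e-06). Tk1 read 2.02, 1.67 and 1.83 in M0 and -1.01, -0.91 and -0.95 in M2a, a 6.96-fold fall (-2.80 ± 0.32, adjusted p = 7.1e-07). Cdc6 read -0.87, -1.09 and -0.76 in M0 and -3.33, -2.73 and -2.87 in M2a (-2.07 ± 0.24, adjusted p = 9.5e-07). None of the 3 overlapped between groups.

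Falls with IL-4 were also called for Rrm2 (-2.45 ± 0.38, adjusted p = 6.1e-05), E2f7 (-2.99 ± 0.42, adjusted p = 1.5e-05), Ccna2 (-2.28 ± 0.39, adjusted p = 0.00015), Cdk1 (-1.69 ± 0.28, adjusted p = 0.0001), Kif2c (-2.44 ± 0.33, adjusted p = 1.2e-05), Bub1 (-2.32 ± 0.32, adjusted p = 1.4e-05), Mki67 (-2.15 ± 0.32, adjusted p = 3.1e-05) and Top2a (-2.13 ± 0.35, adjusted p = 0.00011). Ccne1 fell by -0.98 ± 0.22 (adjusted p = 0.003), from 2.62, 2.30 and 2.72 to 1.55, 1.56 and 1.58. The smallest falls called in their roles included Fen1 (-0.80, adjusted p = 0.0086), Cenpa (-0.78 ± 0.25, adjusted p = 0.043) and Tpx2 (-0.96). Cdt1 (-0.40, adjusted p = 0.067), Pcna (-0.42, adjusted p = 0.051), E2f1 (-0.32) and Mcm6 (-1.14, adjusted p = 0.7) were not called.

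Dexamethasone lowered 42 members and raised none (10.0% of all genes were called lower), with a median of -1.13 against 0.03 over all genes, on a slide set other than that of M0. Pcna read 6.01, 5.79 and 5.56 in M2c, below the 7.19, 7.14 and 7.06 of M0 (-1.34 ± 0.14, adjusted p = 7.6e-08). Tk1 read 0.22, -0.24 and -0.68 in M2c (-2.08 ± 0.32, adjusted p = 2.6e-05), and Ccne1 1.74, 1.26 and 1.02 (-1.20 ± 0.22, adjusted p = 0.00023). All 3 lay wholly below M0. Mcm5 (-1.47 ± 0.24, adjusted p = 7e-05), Ccne2 (-1.89 ± 0.40, adjusted p = 0.00095), Foxm1 (-1.49 ± 0.29, adjusted p = 0.00051) and Bub1 (-1.46 ± 0.32, adjusted p = 0.0015) each had the largest called fall in its role. The anaphase-promoting complex genes were not called (Cdc20 -0.64, adjusted p = 0.17; Ube2c -0.85, adjusted p = 0.15), nor were Plk1 (-0.91, adjusted p = 0.065), Kif20a (-0.83), Cenpf (-0.90), Lig1 (-0.19) and E2f1 (-0.13). IFN-γ, IL-4 and dexamethasone were compared with the same M0 arrays, whose time of harvest is not given.

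**Figure D5:**
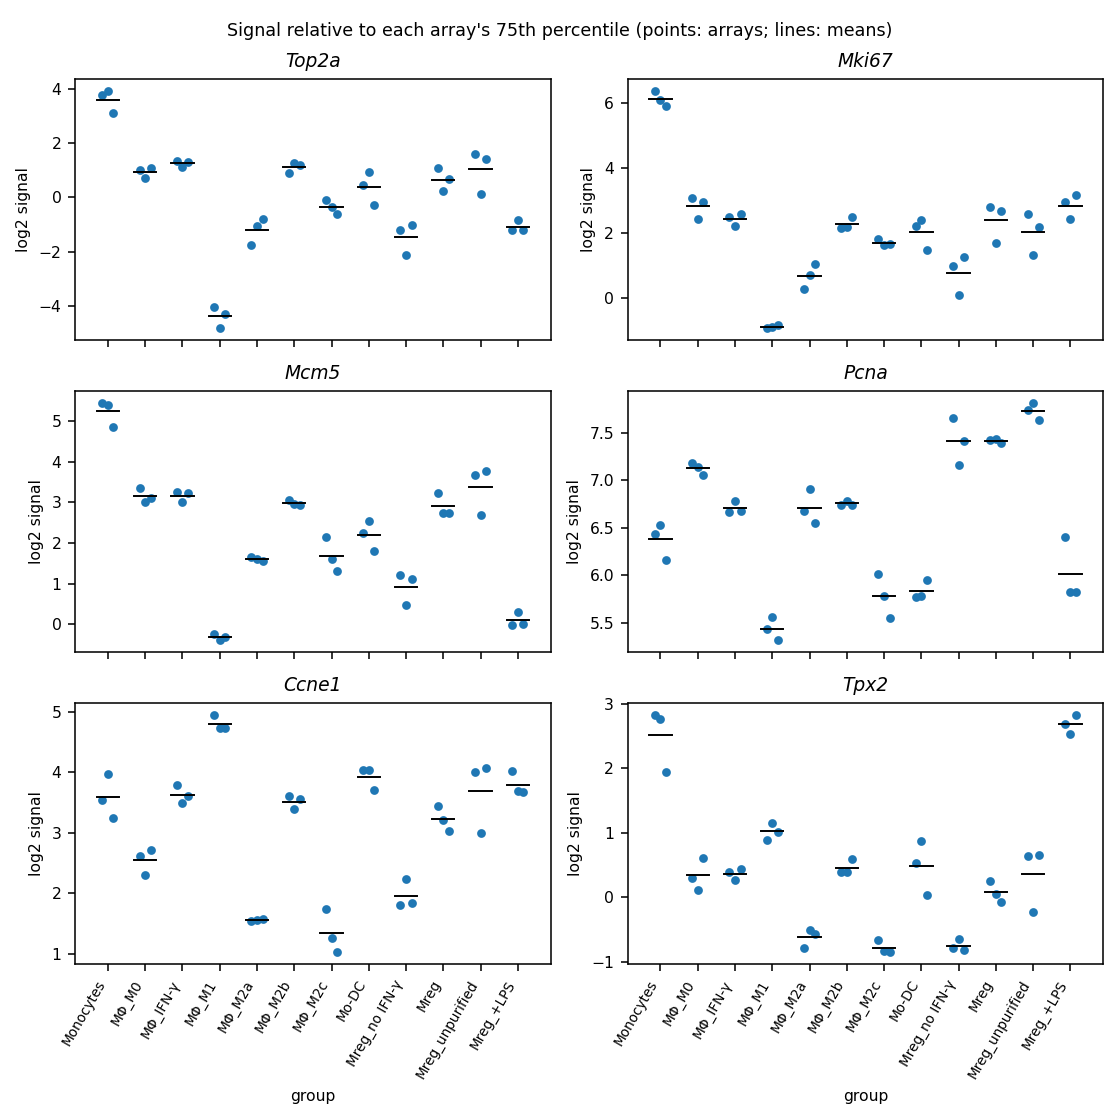
Log2 signal relative to each array's 75th percentile (vertical axis) of 6 genes by group (horizontal axis); points are arrays and lines the means of 3. Top2a, Mcm5 and Mki67 fall from monocytes to M1, except that Mki67 stays at 2.42 to 3.17 in Mreg_+LPS, while Pcna is above monocytes in M0, Ccne1 peaks in M1 at 4.73 to 4.95 and Tpx2 stands at 2.53 to 2.83 in Mreg_+LPS.

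An immunoglobulin coating beside IFN-γ (M2b against MΦ_IFN-γ, on shared slides) changed 0 of 53 by limma, where 3.88% of all genes were called in either direction, and 3 members had an unadjusted p under 0.05. The median was -0.15, and members ran from -0.74 ± 0.27 for Bub1b (adjusted p = 0.13) to 0.32 for Cdt1. Mreg_unpurified against Mreg had 2 members higher and none lower (6.49% of all genes were called higher), with a median of 0.38 against 0.10. Medians by series were 0.50, -0.03 and 0.71. Tyms read 2.41, 1.38 and 1.95 without the sort and 1.33, 0.79 and 1.05 with it (0.86 ± 0.23, adjusted p = 0.017). Tk1 read 2.51, 1.42 and 2.17 against 1.56, 0.62 and 1.01 (0.97 ± 0.32, adjusted p = 0.045), groups that overlapped. The summed erythroid marker level was 6.19 to 8.72 on the Mreg_unpurified arrays, and its part in these values was not tested. The count of 2 became 0 without the series 2 or 3 array of Mreg or series 1 of Mreg_unpurified, 8 without series 2 of Mreg_unpurified and 1 without its series 3.

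Mo-DC against MΦ_IFN-γ, which shared slides, had 19 members lower (25.5% of all genes were called lower) and 1 higher (22.1%). The median was -0.51 against -0.05 over all genes. The series differed, with medians of -0.58, -0.04 and -1.06 in series 1, 2 and 3. In series 2, 23 members were higher in Mo-DC, against 9 in series 1 and 2 in series 3. Of the 20 called members, 19 differed the same way in all 3 series. By role the lower genes were 7 of 9 in licensing, 3 of 7 at the fork and 3 of 6 of the E2F and cyclin E genes, 1 of 8 in mitotic entry, 2 of 9 at the centromere, 3 of 12 of chromosomes and spindle and 0 of 2 of the anaphase-promoting complex, and the difference between roles was not tested. Cdt1 read 3.46, 3.56 and 3.30 in Mo-DC and 4.67, 4.56 and 4.71 in MΦ_IFN-γ (-1.20 ± 0.14, adjusted p = 1.1e-07). Mcm5 read 2.24, 2.53 and 1.82 against 3.26, 3.02 and 3.22 (-0.97 ± 0.24, adjusted p = 0.0016). Both were lower on each Mo-DC array.

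Tk1 (-1.52 ± 0.32, adjusted p = 0.00026), E2f7 (-1.88 ± 0.42, adjusted p = 0.0005) and Pcna (-0.87 ± 0.14, adjusted p = 9.6e-06) were also lower in Mo-DC, as was Kif23, a motor of cytokinesis (-1.44 ± 0.32, adjusted p = 0.00057). Cenpa was the gene that went the other way, at 1.70, 1.65 and 1.55 in Mo-DC and 0.33, -0.18 and -0.22 in MΦ_IFN-γ (1.66 ± 0.25, adjusted p = 5.5e-06). Cdk1 (0.24, adjusted p = 0.5), Ccnb1 (0.02), Mki67 (-0.40), Plk1 (-0.51) and Ccne1 (0.30) were not called. These cultures differ in growth factors and in IL-4 together.

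Other genes of the same processes, from lists separate from the 53, are given by their counts. Of 40 other replication genes and 50 other mitosis genes measured, IFN-γ raised 25 and 46 in the Mreg culture and lowered none (9.5% of all genes were called higher), and in M-CSF macrophages it raised 4 and 0 (10.8%). The response was larger in the Mreg culture for 10 and 16 of them by the test of the difference (1.23% of all genes). LPS lowered 30 and 42 in Mreg (25.6% of all genes) and raised 4 and 2 (31.6%). In M1 it lowered 31 and 47 (23.9%) and raised 1 and 1 (27.1%). IL-4 lowered 24 and 47 (5.94%), and dexamethasone lowered 26 and 30 (10.0%). Ncapg2, a condensin subunit, rose with dexamethasone by 2.40 ± 0.27 (adjusted p = 2.8e-07), against the direction of its list. Mo-DC had 21 and 20 lower than MΦ_IFN-γ (25.5% of all genes), M0 had 31 and 48 lower than monocytes (33.3%), and Mreg_no IFN-γ had 34 and 48 lower than monocytes (33.1%).

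Of 18 genes of the G1 phase, IFN-γ raised 5 and lowered none in the Mreg culture, where 20.4% of all genes were called in either direction. In M-CSF macrophages 4 rose and 2 fell, where 22.2% of all genes were called. Ccnd2, a D-type cyclin that starts G1, rose by 2.41 ± 0.53 (adjusted p = 0.0015) in the Mreg culture and by 1.63 ± 0.53 (adjusted p = 0.026) in M-CSF macrophages. Rbl1, the retinoblastoma relative p107, rose by 1.70 (adjusted p = 5.1e-07) and 1.18 (adjusted p = 6.3e-05). Of 16 kinase inhibitor and growth arrest genes, 4 fell and 1 rose in the Mreg culture, and 3 fell and 4 rose in M-CSF macrophages, against the same shares of all genes. Cdkn1c, a kinase inhibitor, fell by -2.75 ± 0.31 (adjusted p = 2.6e-07) and -2.72 (adjusted p = 2.1e-07), and Cdkn2b, another, by -2.87 ± 0.60 (adjusted p = 0.00087) and -3.60 (adjusted p = 4.5e-05). No gene of either list was called for a difference between the responses.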

How the data were processed

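Total RNA was labelled with Cy3 and hybridised to one-colour Agilent arrays, per the labels' protocols. The deposited scanner files hold a processed intensity per spot, with background already subtracted, and above-background flags, from Feature Extraction 10.5.1.1 per the file headers. The authors' deposited series table holds log2-scale values that correlate with the scanner values at 0.997 or more, with column medians from 4.33 to 4.38; how they were normalised and centred is not given in the sources used here. They served as an alternative.

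Each array's log2 signal was set relative to its 75th percentile, 26478 probes passed a filter of 3 or more arrays above background, and a gene took its brightest probe. limma 3.58.1 in R 4.3.3 fitted all 12 groups together (24 residual degrees of freedom, moderated with a prior of 2.09), with Benjamini-Hochberg adjusted p under 0.05 over all 17607 genes as the call. The number of arrays limits the precision. Members and lists were chosen with earlier results of these data known. Named in the text are, per comparison and role, the called members with the largest and smallest difference, every called member against the majority, and 12 standing genes (Mcm5, Pcna, Rrm2, Ccne1, E2f1, Cdk1, Ccnb1, Plk1, Top2a, Mki67, Birc5 and Bub1); others shown were chosen after their values were seen. Of the other lists, up to 4 genes with the largest called differences were eligible.

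Replicate numbers in the labels are series 1 to 3. Deviations of same-numbered arrays from their group means correlated positively in every pair, from 0.01 to 0.56. Correlations were 0.10 or more in all 3 pairs for IFN-γ in each culture, LPS in each culture, IL-4, dexamethasone and the immunoglobulin coating. Elsewhere at least 1 pair was lower. Alternatives were quantile scaling, normexp background correction, no filter and a stricter filter (18 arrays), the mean of all probes, the series table, the replicate, slide or scan day as a block, only the compared groups, and leaving out each array.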

Additional observations from a re-analysis of the deposited data

Results flagged for a closer look

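The 2 cultures differed in their response to IFN-γ by the test of the difference itself in 19 of the 53 genes. Of all genes, 1.23% were called higher by that test. The count of 19 became 1 with normexp background correction and 7 to 22 leaving out an array. Among the genes described, the response was larger in the Mreg culture by 1.96 for Mcm5, 2.00 for Tk1, 2.62 for E2f7, 2.13 for Ccna2, 1.86 for Bub1 and 2.33 for Kif2c, all on the log2 scale. These genes started from lower levels in Mreg_no IFN-γ than in M0, as the comparison of unstimulated cultures shows, and M0 and MΦ_IFN-γ lay on different slides. The part of the starting level in the difference of the responses was not tested.

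The responses to LPS differed between the cultures in 41 of the 53 genes, where 18.8% of all genes were called higher. The difference was 2.52 for Mcm2, 2.18 for Tk1, 4.13 for Ccnb2, 3.03 for Cenpe, 3.88 for Top2a and 3.68 for Cdc20. The 75th percentile signal was 338.2 to 364.5 on the Mreg_+LPS arrays, at the low end of the series. Its part in this difference was not tested.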

How the results depend on the processing

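Counts of called members stayed within 1.5 times of the reported count for 10 of 15 comparisons under every alternative run, and over them ran from 40 to 46 for IFN-γ in the Mreg culture, 43 to 49 for LPS in Mreg, 50 to 52 for LPS in M1, 47 to 51 for IL-4 and 39 to 49 for dexamethasone (32 to 40 leaving out an array). For IFN-γ in M-CSF macrophages the 2 became 4 with quantile scaling or the series table, 1 without the filter and 7 with only the compared groups, and 1 to 2 leaving out an array. For the difference of the IFN-γ responses the 19 became 1 with normexp, 30 with only the compared groups and 7 to 22 leaving out an array. For the cultures under IFN-γ the 8 became 14 with only the compared groups and 2 to 12 leaving out an array. For the immunoglobulin coating the 0 became 1 with only the compared groups. For the unsorted Mreg the 2 became 1 with quantile scaling, normexp, no filter, the mean of probes or the series table, 0 with only the compared groups, and 0 to 8 leaving out an array. With the replicate block it became 4, as with scan day or a random slide block, and 5 with fixed slides; the block moved no other count by over 1.5 times. Mcm6 reversed without monocyte array 1, to -0.85 in M0 and -2.01 in Mreg_no IFN-γ. Its spot on that array read -4.14, and why it read low was not tested. Without monocyte array 2 the Mcm6 values rose to 4.65 and 3.49. Of 5458 values of single genes under alternatives, 5124 kept their direction and call, 270 lost and 62 gained a call and 2 reversed. Normexp, run with an offset of 50 intensity units added before the log, shrank medians, for example to 1.12 for IFN-γ in the Mreg culture and -2.45 for LPS in M1. The part of the offset in these smaller values was not tested. Quantile scaling moved the median of all genes from 0.16 to -0.02 for LPS in Mreg and from -0.08 to 0.07 for M0 against monocytes. In the shorter 250-base window CHR letters were in 12 member promoters (24.5%, against 16.0% of all) and E2F-type letters in 6 (12.2%, against 1.53%). Signal over background limits the M1 values, where 12 members have only a bound.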

Other observations

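LPS also changed single genes outside replication and mitosis proper, where 57.3% of all genes were called in either direction in Mreg_+LPS and 51.0% in M1. The list counts were not tested against those shares. Of 18 genes of the G1 phase, 10 fell and 3 rose in Mreg_+LPS, and 8 fell and 3 rose in M1; E2f2, an activating E2F, fell by 2.97 and 4.49 on the log2 scale. Of 16 kinase inhibitor and growth arrest genes, 6 rose and 3 fell in Mreg_+LPS, and 7 rose and 4 fell in M1. Gadd45b, a stress-induced growth arrest gene, rose by 5.43 and 3.52, and Cdkn2b rose by 5.61 in M1. Of 9 regulators of M-CSF driven growth and its arrest, 2 rose and 2 fell in Mreg_+LPS, and 4 rose and 2 fell in M1. Myc, a growth-promoting transcription factor, fell by 1.31 in Mreg_+LPS and by 5.46 in M1, and the responses differed by 4.15; Klf4, a factor of monocyte identity, rose by 3.66 in M1, with a difference of -3.27.

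The D-type cyclins went in both directions from monocytes to culture. Ccnd1 was higher than in monocytes by 6.58 in M0 and 5.85 in Mreg_no IFN-γ, while Ccnd3 was lower by -3.41 in M0. Ccnd2 was lower in Mreg_no IFN-γ than in M0 by -4.20 and lower in Mreg than in MΦ_IFN-γ by -3.43. Cdkn1c was higher in the Mreg culture by 1.59 without and 1.56 with IFN-γ. Dexamethasone lowered 12 of the 18 G1 genes (10.0% of all genes were called lower) and raised 2 (10.4%), with Ccnd2 at -1.57 and Ccnd1 at -1.53. In Mo-DC the inhibitors Cdkn2b and Cdkn2a stood above MΦ_IFN-γ by 6.06 and 5.92.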
